A study of Bos taurus with 8 samples.

Results

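The count table of this study of bovine endothelial cells lists, beside the genes of the Ensembl annotation, a set of transcribed units that carry no gene identifier and are numbered from Novel00001 to Novel01273. All 1273 of these unannotated units were taken, chosen by their identifiers alone, and they make up 1273 of the 25889 entries of the table, the other 24616 being Ensembl genes. The RNA came from 2 kinds of cultured bovine endothelial cells, choroidal (BCE) and aortic (BAE), treated for 6 h either with leukemia inhibitory factor (LIF) at 10 ng/ml or with vehicle, which was BSA in PBS. There were 2 libraries in each of the 4 groups. Both cell types had first been kept for 3 h in low-glucose DMEM with antibiotics, which held 10% bovine calf serum for BCE cells and 1% for BAE cells. BCE cells had been maintained on fibronectin with bFGF and VEGF and BAE cells had not, so cell type, serum and culture history cannot be told apart in any comparison of the 2 cell types. The study's methods describe the libraries of a group as biological replicates, and how their cultures were kept apart is not given in the sources used here, so the p-values measure only the spread between these libraries. In such bulk RNA, fewer cells of a type and less RNA per cell cannot be told apart.

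LIF is a cytokine of the interleukin 6 family. It binds a receptor made of LIFR and gp130 and acts through JAK kinases and the transcription factor STAT3. Unannotated transcribed units are in general found where aligned reads pile up outside the known gene models. They can be noncoding RNAs, protein-coding genes that an annotation has missed, extensions or antisense partners of known genes, or fragments of longer transcripts. How these 1273 units were defined, where they lie in the genome and how long they are is not given in the sources used here. It is also not stated whether reads were counted by strand. A unit that overlaps a gene, or that has a near-identical copy, may therefore share reads with it, and no sequence is shown for the units.

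The libraries held between 18600598 and 35269335 counts. As a check of the labels, the LIF targets SOCS3, STAT3, CEBPD and BCL3 were each higher in both LIF libraries than in both vehicle libraries in either cell type, with log2 fold changes from 0.63 to 1.79 in BCE cells and from 0.99 to 3.57 in BAE cells. The names of these genes came from the authors' list of genes called in these same BCE libraries. Their change in BCE cells is therefore no independent check. The endothelial markers could not be looked up, since that list pairs few Ensembl identifiers with names.

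Nearly all units were detected in these endothelial cells. At least 1 count was found for 1257 of the 1273 units (98.7%), and 16 units had no count in any library. In all 8 libraries 1101 units (86.5%) had a count, and 775 units (60.9%) had at least 10 counts in each. Of the Ensembl genes, 16753 of 24616 (68.1%) had a count in some library, 12564 (51.0%) in all 8 and 11150 (45.3%) at least 10 counts in each. Whether the units were defined on these same reads is not given in the sources used here, so these shares are a description only.

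Most units were covered by few reads. Among the 1257 units with a count, the median of the mean level over the 8 libraries was 1.87 CPM (counts per library scaled to one size by TMM), the quartiles were 0.612 and 6.45 CPM and the 90th percentile was 22.3 CPM. The median of the 16753 Ensembl genes with a count was 11.9 CPM. After a filter on low counts, the medians were 2.31 CPM for 1145 units and 26.4 CPM for 12501 Ensembl genes. A level of 1 CPM or more was reached by 808 units, 10 CPM by 234 and 100 CPM by 38, which is 2.99% of the units against 8.30% of the Ensembl genes. CPM values are not divided by length, and the lengths of the units were not used here, so this difference in CPM is one of reads per entry and not of molecules. At these depths, 3 counts in a library correspond to 0.0873 to 0.156 CPM.

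**Figure D1:**
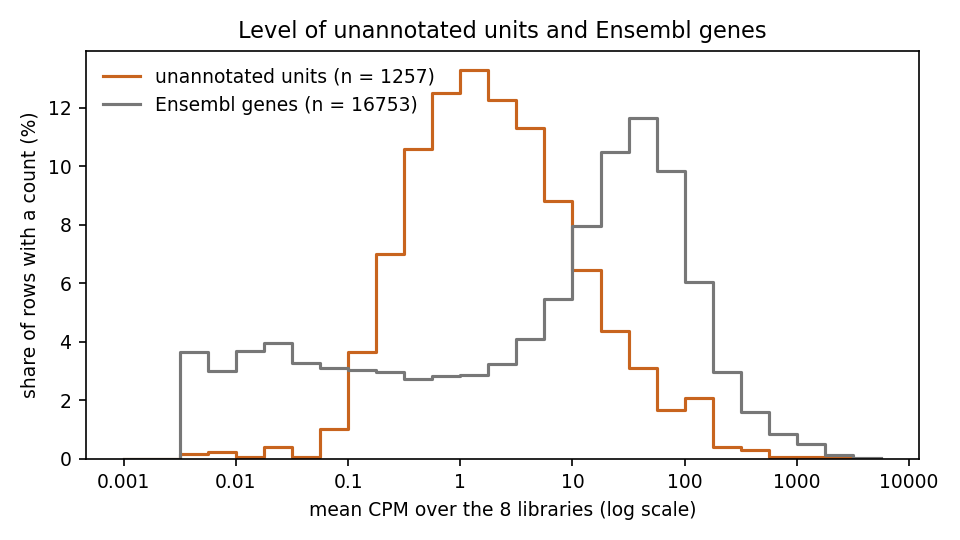
Distribution of the mean level of 1257 unannotated units and 16753 Ensembl genes with at least 1 count, as the share of each set (y axis, %) in classes of mean CPM over the 8 libraries (x axis, log scale). The units form one peak near their median of 1.87 CPM, while the Ensembl genes have a peak above 10 CPM and a long tail of lower values.

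The units together took a nearly constant part of each library. In BCE cells they held 1.77% and 1.82% of the counts with vehicle and 1.77% and 1.77% after LIF, and in BAE cells 1.81% and 1.80% with vehicle and 1.79% and 1.81% after LIF. The means were 1.78% ± 0.0224 in BCE and 1.80% ± 0.0122 in BAE libraries (SD, n = 4 each with both treatments pooled, exact two-sided permutation test, p = 0.229). This sum rested on few units, since 29 of them held at least as many counts as all the others together and the 10 with most counts held 34.2%. Without those 10, the share was 1.20% ± 0.0247 in BCE and 1.16% ± 0.00457 in BAE libraries, which turned the direction of the difference (exact permutation test, p = 0.0286, the smallest that n = 4 against n = 4 allows).

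The number of units detected was also close. Between 1189 and 1224 units (93.4% to 96.2%) had a count in each library. When every library was set to the depth of the shallowest, 1197 ± 5.28 units were expected in BCE and 1207 ± 5.13 in BAE libraries (SD, n = 4 each with both treatments pooled, exact permutation test, p = 0.0286). The means with vehicle and after LIF were 1199 and 1195 in BCE and 1211 and 1202 in BAE cells. Differences between treatments therefore enter the SD and the p-value. The difference of BCE minus BAE was -9.94 units. At that depth the Ensembl genes leaned the other way, without a test. Their expected numbers were 14175, 14311, 14075 and 14047 in BCE and 14046, 14047, 14018 and 13978 in BAE libraries, vehicle first. Counted instead as units with at least 10 counts in the libraries as deposited, the numbers were 1003 ± 52.1 and 1004 ± 55.3 (exact permutation test, p = 0.971, n = 4 each).

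Replicate libraries had closely similar levels of the units. Over the 1145 units that passed the filter on low counts in the 4 groups, Pearson's r of the log2 level between the 2 libraries of a group was 0.991 to 0.993, and 0.996 to 0.998 over 12501 Ensembl genes. These correlations are across units within a pair of libraries, and units are not independent replicates. The median absolute difference between replicates was 0.120 to 0.143 on the log2 scale for units and 0.0737 to 0.102 for Ensembl genes. A single unit, Novel01217, had at least 100 counts in 1 library and over 10 times the CPM of its partner library, and 12 Ensembl genes did.

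The 10 units with most counts show the range at the top. Novel01203, the unit with the most, had 1754 and 1868 CPM in vehicle-treated BCE cells, 1803 and 1808 CPM in LIF-treated BCE cells, 1958 and 2053 CPM in vehicle-treated BAE cells, and 2182 and 2133 CPM in LIF-treated BAE cells. It alone held 10.8% of all unit counts. Every BAE library lay above every BCE library, and the BCE level was lower by a log2 fold change of -0.26 (SE 0.0365) after LIF (edgeR quasi-likelihood test, adjusted p = 5.12e-07) and -0.15 (SE 0.0617) with vehicle, which did not pass the test (adjusted p = 0.058). With vehicle it passed with the replicate number as a block (adjusted p = 0.0124), with all 8 libraries in one fit (adjusted p = 0.0104), with no filter on low counts (adjusted p = 0.0205) and with DESeq2's test (adjusted p = 0.0395), at log2 fold changes from -0.16 to -0.15. Novel01046, the next, lay between 1001 and 1199 CPM in all 8 libraries, and its groups overlapped in each comparison.

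Others of the 10 separated the cell types widely. Novel01095 had 121 and 121 CPM in vehicle-treated BCE cells and 121 and 125 CPM in LIF-treated BCE cells, against 612 and 603 CPM in vehicle-treated BAE cells and 539 and 536 CPM in LIF-treated BAE cells. Its log2 fold change of BCE over BAE was -2.33 (SE 0.0548) with vehicle and -2.13 (SE 0.0439) after LIF. Novel00437 had 268 to 332 CPM in BCE and 890 to 950 CPM in BAE libraries. Novel01088 had 344 to 363 CPM in BCE and 522 to 572 CPM in BAE libraries. The opposite order was seen for Novel00655, with 489 to 512 CPM in BCE and 286 to 323 CPM in BAE libraries. Novel01026 was higher in BCE cells as well and also responded to LIF. In all, 8 of the 10 passed the test between the cell types with vehicle and 9 after LIF, where 53.8% and 63.9% of all entries tested passed, and 68.2% and 83.8% of the units with 1000 counts or more per library.

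The comparison of the 2 cell types asks which units differ between choroidal and aortic endothelial cells. Of 1105 units tested in vehicle-treated cells, 293 were higher in BCE and 267 were higher in BAE cells, 560 in all or 50.7%. Over all 13426 entries tested, 53.8% passed the test, 26.2% as higher and 27.6% as lower in BCE cells, and among Ensembl genes 54.1% passed. The test was edgeR's quasi-likelihood test with Benjamini-Hochberg adjustment over all entries and a threshold of 0.05. An unadjusted p under 0.05 was found for 617 units (55.8%, with 58.9% of all entries). In LIF-treated cells, 310 units were higher in BCE and 263 in BAE cells, 573 of 1048 or 54.7%. There 63.9% of 13217 entries passed, 31.7% as higher and 32.2% as lower, and 64.7% of Ensembl genes.

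The median absolute log2 fold change of the units that passed was 1.30 with vehicle and 1.17 after LIF, against 0.60 and 0.51 for Ensembl genes that passed. These medians were the same with units that had a group without any count set at the bound that 3 counts in the group allow, which concerned 25 units with vehicle and 19 after LIF. A change of over 2-fold was found for 337 of the 560 units (60.2%) and for 318 of the 573 (55.5%), against 32.1% and 27.6% of the Ensembl genes that passed. The units had lower counts than the Ensembl genes, so the shares are also given by class of mean count. In the class of 30 to 100 counts per library, 48.5% of units and 48.2% of Ensembl genes passed with vehicle, and 47.9% and 57.4% after LIF. In the class of 1000 counts or more, 68.2% of units and 58.9% of Ensembl genes passed with vehicle, and 83.8% and 72.7% after LIF, where the units number 85 and 80. Over all entries tested with under 30 counts, the median absolute log2 fold change was 0.90 for units and 1.08 for Ensembl genes with vehicle, and 0.85 and 1.05 after LIF. At 30 to 100 counts it was 0.64 and 0.64 with vehicle and 0.56 and 0.65 after LIF, and at 1000 counts or more 0.32 and 0.23 with vehicle and 0.35 and 0.23 after LIF.

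**Figure D2:**
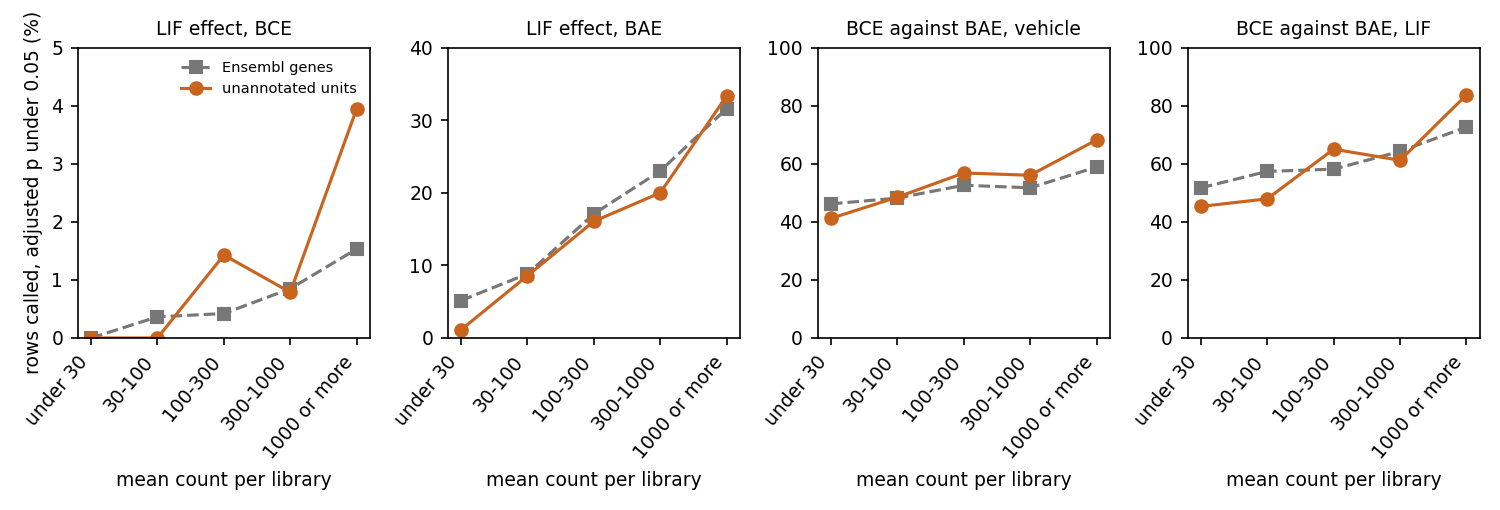
Share of entries with an adjusted p under 0.05 (y axis, %) in 5 classes of mean count per library (x axis), for unannotated units (orange circles) and Ensembl genes (grey squares), in 4 comparisons with different y scales. In the LIF effect in BAE cells, 1.12% of units and 5.16% of Ensembl genes passed under 30 counts. From there both sets rise, with 8.57% and 8.83% at 30 to 100 counts and 33.3% and 31.6% at 1000 counts or more.

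Most units called in one comparison of the cell types were also called in the other. The comparisons with vehicle and after LIF share no library. Of 1033 units tested in both, 530 passed with vehicle and 564 after LIF, and 444 passed in both, which is 83.8% of the former and 78.7% of the latter. All 444 had the same direction, 232 higher in BCE and 212 higher in BAE cells. Of the Ensembl genes, the shares were 87.8% and 73.7%. Pearson's r of the log2 fold changes over the 1033 units was 0.945 and Spearman's rho was 0.879, each across units, which are not independent replicates, and r over 12075 Ensembl genes was 0.956.

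**Figure D3:**
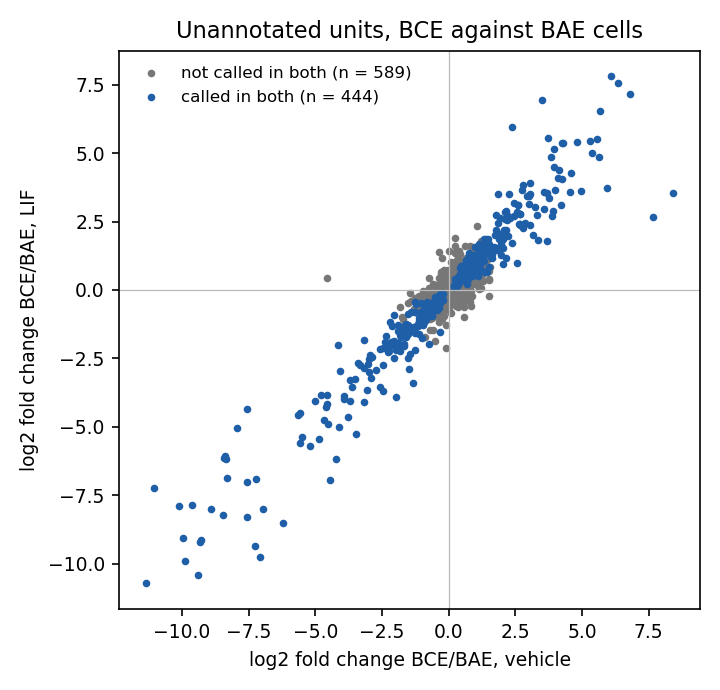
Log2 fold change of BCE over BAE cells for 1033 unannotated units, with vehicle (x axis) and after LIF (y axis). Blue points are the 444 units that passed the test in both comparisons, all of which lie in the lower left or the upper right quadrant, and grey points are the other 589.

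A small set of units was counted in one cell type and nearly absent from the other. Units restricted to BAE cells, with at least 10 counts in each BAE library and at most 3 in each BCE library, numbered 30 of the 900 units with at least 10 counts in every BAE library (3.33%). Over all entries the share was 1.29%, and over Ensembl genes 1.13%. Units restricted to BCE cells numbered 14 of 890 (1.57%), against 0.524% of all entries and 0.443% of Ensembl genes. Of these, 11 BAE units (1.22%, with 0.535% of all entries) and 1 BCE unit (0.112%, with 0.0484% of all entries) had no count at all in the other cell type. With at least 30 counts required in place of 10, 20 units were restricted to BAE cells (3.08%, with 0.884% of all entries). Restricted to BCE cells were then 3 units (0.472%, with 0.0969% of all entries). More Ensembl genes were restricted to BAE than to BCE cells as well, 131 against 51 with at least 10 counts.

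The BAE-restricted units reached the higher levels. Novel00903 had 618 and 396 counts in BAE cells with vehicle and 345 and 442 after LIF, and 0, 1, 2 and 1 counts in the BCE libraries. Novel00989 had 460 and 226 counts in BAE cells with vehicle and 192 and 239 after LIF, and no count in any BCE library. Against a floor of 3 counts per group, Novel00989 was at least 219-fold higher in BAE cells with vehicle and at least 139-fold higher after LIF. The LIF effect in BAE cells was a log2 fold change of -0.07 (SE 0.0863) for Novel00903 and -0.34 (SE 0.129) for Novel00989, and neither passed the test (adjusted p = 0.629 and 0.0688).

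Novel00313 and Novel00564, also restricted to BAE cells, differed by treatment. Novel00313 had 533 and 339 counts, or 15.5 and 15.5 CPM, in vehicle-treated BAE cells and 170 and 174 counts, or 8.12 and 6.76 CPM, after LIF, with 1 count in the 4 BCE libraries together. Its LIF effect was a log2 fold change of -1.03 (SE 0.117, edgeR adjusted p = 5.5e-06). Novel00564 moved the other way, from 5.94 and 4.40 CPM with vehicle to 12.2 and 13.7 CPM after LIF, a log2 fold change of 1.33 (SE 0.143, adjusted p = 3.21e-06), and had 4 counts in the BCE libraries together. Novel00220, another BAE-restricted unit, had 546 counts in vehicle-treated BAE cells and none in vehicle-treated BCE cells, at least 174-fold more. After LIF it had 352 against 2 counts, a ratio of 170 with a counting interval from 46.7 to 1408. In BAE cells it had 9.84 and 9.53 CPM with vehicle and 8.31 and 6.91 CPM after LIF. This LIF effect, a log2 fold change of -0.32 (SE 0.130), did not pass the edgeR test (adjusted p = 0.0892). Of the 30 BAE-restricted units, 6 were called for LIF in BAE cells, 2 higher and 4 lower, where 22.2% of all entries tested were called, 13.6% as higher and 8.55% as lower.

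The BCE-restricted units were covered by few reads, from 0.626 to 2.59 CPM as the mean of the 4 BCE libraries, against 0.576 to 17.4 CPM for the BAE-restricted ones in BAE libraries. Novel00482 had 86 and 80 counts in BCE cells with vehicle and 48 and 44 after LIF, against 3, 3, 2 and 0 in the BAE libraries. Novel00141 had 75, 49, 53 and 41 counts in the same BCE libraries and 3, 0, 1 and 1 in the BAE libraries. Novel00096, Novel00957 and Novel00827 followed, with 168, 144 and 137 counts over the BCE libraries and 4, 1 and 1 over the BAE libraries. None of the 14 was called for LIF in BCE cells by edgeR or DESeq2, 2 had an unadjusted p under 0.05 with edgeR, and 0.922% of all entries tested were called. Of the 296 units under 30 counts per library, 13 had an unadjusted p under 0.05 and none was called by edgeR or DESeq2. With edgeR, 0 of 989 Ensembl genes were called in that class.

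The units with the largest fitted differences between the cell types were in part the same. With vehicle, the largest for BAE were Novel00989 and Novel00220, above, and Novel00458, Novel00417 and Novel00597, which had no count in vehicle-treated BCE cells and were at least 93.6-fold, 79.6-fold and 76.0-fold higher in BAE cells. The largest for BCE had no count in vehicle-treated BAE cells. They were Novel00751, at least 29.2-fold higher, Novel00183, at least 12.9-fold higher, Novel00806, at least 12.2-fold higher, and Novel00180, at least 9.39-fold higher, each with 27 to 84 counts in vehicle-treated BCE cells. Novel00850 was the other unit of this set, with 25 and 24 counts in vehicle-treated BCE cells and 0 and 0 in vehicle-treated BAE cells. It was at least 17.0-fold higher in BCE cells with vehicle, and had 0 and 5 counts in LIF-treated BAE cells. After LIF, the largest for BAE were Novel00989 and Novel00313, then Novel00597, at least 78.2-fold, Novel00153, at least 70.4-fold, and Novel00739, at least 53.1-fold higher. The largest for BCE after LIF were Novel00827, Novel00957, Novel00180, Novel00184 and Novel00620, at least 8.64-fold to 19.0-fold higher.

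The LIF effect in BCE cells asks which units change within 6 h in the choroidal cells. Of 1029 units tested, 5 rose and 2 fell, 7 in all or 0.680%, while 0.922% of all 13014 entries passed, 0.692% as higher and 0.231% as lower, and 0.943% of the Ensembl genes. At an unadjusted p under 0.05 there were 76 units (7.39%, with 9.57% of all entries). DESeq2 called 7 units as well (0.680%, with 1.08% of all entries), and 23 were called with no filter on low counts (1.87%, with 2.56% of all entries). The count depended on single libraries. It was higher without either vehicle library and lower without either LIF library, and the count over all entries moved in the same way. A fit with 1 library left out keeps a single library in a group, so its counts are not given here.

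The deposited table of genes called in BCE cells after LIF gives a protein description for 7 of the 8 unannotated units it lists. These descriptions come from matches to protein databases, whose quality is not given, and the authors chose the 8 units on these same BCE libraries, so their direction there is no independent evidence. The 8 are the 7 units called here and Novel00421.

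Novel01026, described as C-type lectin domain family 2 member B, a membrane protein of a family of lectin-like receptors and ligands, was the only LIF-responsive unit in BCE cells among the 10 with most counts. It had 347 and 344 CPM in vehicle-treated BCE cells and 500 and 494 CPM in LIF-treated BCE cells. It had 73.7 and 82.8 CPM in vehicle-treated BAE cells and 210 and 228 CPM in LIF-treated BAE cells. No 2 groups overlapped. The LIF effect was a log2 fold change of 0.53 (SE 0.0442, edgeR adjusted p = 0.000348) in BCE and 1.52 (SE 0.0559, adjusted p = 1.01e-11) in BAE cells, and with vehicle the BCE level was higher by 2.14 (SE 0.0641) on the log2 scale.

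Novel00979, the unit without a protein description, had 6.02 and 6.01 CPM in BCE cells with vehicle and 12.5 and 12.6 CPM after LIF, and 3.32 and 3.30 CPM in BAE cells with vehicle and 14.7 and 14.4 CPM after LIF. It rose in BCE cells by a log2 fold change of 1.06 (SE 0.120, adjusted p = 0.00224) and in BAE cells by 2.16 (SE 0.129, adjusted p = 2.44e-09). Novel00440, described as a putative adrenomedullin-5-like protein, which would belong to a family of vasoactive peptides, had 4.13 and 5.43 CPM in BCE cells with vehicle and 11.1 and 12.5 CPM after LIF. In BAE cells it had 1.45 and 1.92 CPM with vehicle and 4.97 and 8.08 CPM after LIF. Its log2 fold changes were 1.31 (SE 0.158, adjusted p = 0.00366) in BCE and 2.02 (SE 0.237, adjusted p = 8.38e-06) in BAE cells, and after LIF the libraries of each cell type lay above both of its vehicle libraries.

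Novel00122, described as similar to the disabled homolog 2 interacting protein, a scaffold that restrains Ras signaling, had 18.1 and 13.3 CPM in BCE cells with vehicle and 29.5 and 25.6 CPM after LIF, and 11.4 and 11.04 CPM in BAE cells with vehicle and 28.1 and 27.5 CPM after LIF. Its log2 fold changes were 0.81 (SE 0.136, adjusted p = 0.0236) and 1.34 (SE 0.0853, adjusted p = 5.72e-09). The call in BCE cells depended on the first LIF library, without which the log2 fold change was 0.70. Novel01130, described as multiple C2 and transmembrane domain-containing protein 1, a calcium-binding membrane protein, had 4.605 and 4.52 CPM in BCE cells with vehicle and 12.1 and 11.02 CPM after LIF, a log2 fold change of 1.35 (SE 0.134, adjusted p = 0.000916). In BAE cells it was at 18.4 and 19.1 CPM with vehicle and at 20.9 and 22.9 CPM after LIF, a log2 fold change of 0.26 (SE 0.0848, adjusted p = 0.0365) that did not pass with DESeq2 (adjusted p = 0.182) or with the replicate number as a block (adjusted p = 0.0514). After LIF, both BCE libraries still lay below the vehicle-treated BAE libraries.

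The 2 units that fell in BCE cells were among the better covered. Novel00015, described as an uncharacterized bovine protein, had 75.1 and 81.9 CPM with vehicle and 62.6 and 59.99 CPM after LIF in BCE cells, and 55.1 and 51.7 CPM with vehicle and 33.4 and 37.7 CPM after LIF in BAE cells. Its log2 fold changes were -0.35 (SE 0.0659, adjusted p = 0.0397) and -0.55 (SE 0.0729, adjusted p = 3.05e-05). Novel01236, described only as a hypothetical protein of the cattle blood parasite Babesia bigemina, had 97.2 and 108 CPM with vehicle and 80.2 and 76.1 CPM after LIF in BCE cells, a log2 fold change of -0.39 (SE 0.0658, adjusted p = 0.0239). In BAE cells its groups overlapped, with 87.4 and 76.2 CPM against 81.3 and 68.0 CPM. Neither fall in BCE cells passed the test when either LIF library was left out, with adjusted p values from 0.0874 to 0.384.

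Novel00421, described as similar to F-box only protein 31, a substrate receptor of a ubiquitin ligase, had 7.83 and 10.5 CPM with vehicle and 14.4 and 13.4 CPM after LIF in BCE cells. The log2 fold change was 0.62 (SE 0.142) and did not pass the test (adjusted p = 0.112), while it passed with the replicate number as a block (adjusted p = 0.0492) and with all 8 libraries in one fit (adjusted p = 0.0235). In BAE cells it rose from 17.1 and 18.9 CPM to 44.2 and 49.8 CPM, a log2 fold change of 1.42 (SE 0.0837, adjusted p = 2.02e-09).

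**Figure D4:**
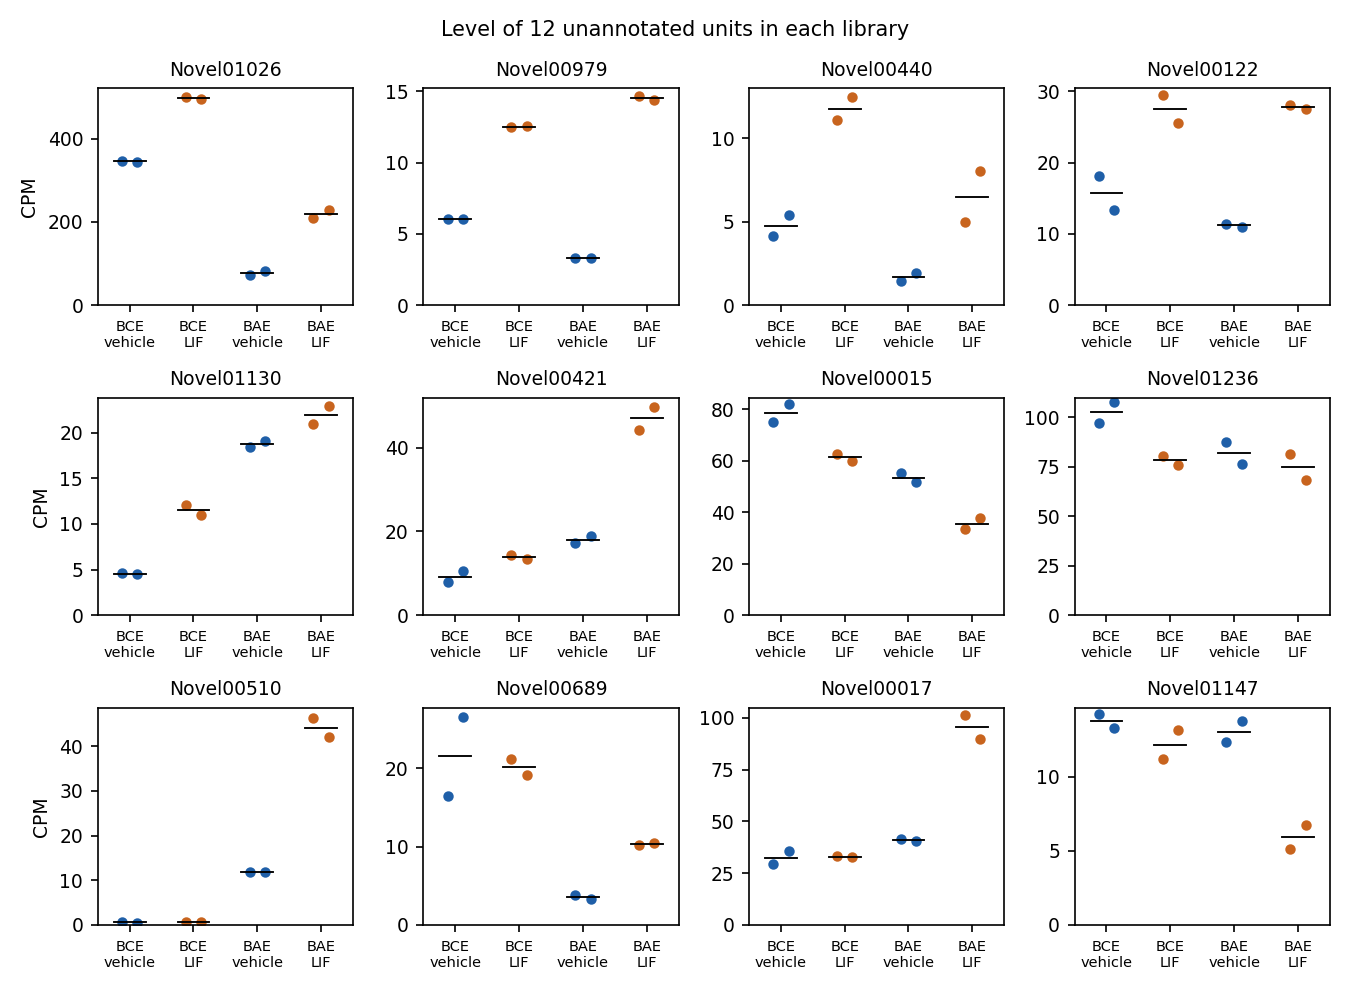
Level in CPM (y axis, linear from 0, a scale per panel) of 12 unannotated units in each of the 8 libraries, in blue for vehicle and orange for LIF, with a bar at the mean of the 2 libraries of a group. The first 8 panels are the units of the deposited table, and the last 4 (Novel00510, Novel00689, Novel00017 and Novel01147) were called after LIF in BAE cells and not in BCE cells.

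In BAE cells LIF changed more units. Of 1012 units tested, 62 rose and 56 fell, 118 in all or 11.7%. The groups of all 118 were separate, as were those of 50.3% of units tested and 61.2% of all entries tested. The 118 were chosen by the test, so their separation is no further evidence. Over all 13034 entries 22.2% passed, 13.6% as higher and 8.55% as lower, and 23.0% of the Ensembl genes. At an unadjusted p under 0.05 there were 217 units (21.4%, with 33.2% of all entries). With DESeq2's test the count was 69 units (6.82%, with 14.5% of all entries), 68 of them among the 118. By class of mean count, 8.57% of units and 8.83% of Ensembl genes passed at 30 to 100 counts per library, 16.1% and 17.1% at 100 to 300, 20.0% and 23.0% at 300 to 1000, and 33.3% and 31.6% at 1000 or more. Units with under 30 counts were 26.4% of those tested, against 7.42% of the Ensembl genes tested. In that class the 2 sets differed, as 1.12% of units and 5.16% of Ensembl genes passed.

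Of the 118 units, 20 rose and 11 fell by over 2-fold, together 26.3%, against 7.69% of the Ensembl genes that passed, and units had lower counts than Ensembl genes. The largest increases after Novel00979 and Novel00440 were in Novel00510, Novel00376 and Novel00292. Novel00510 had 11.8 and 11.8 CPM with vehicle and 46.3 and 42.0 CPM after LIF in BAE cells, a log2 fold change of 1.93 (SE 0.0855, adjusted p = 6.87e-11), and 0.498 to 0.739 CPM in the BCE libraries. Novel00376 went from 4.10 and 4.40 CPM to 15.7 and 13.7 CPM, a log2 fold change of 1.83 (SE 0.130, adjusted p = 2.41e-08). Novel00292 went from 0.524 and 0.733 CPM to 2.01 and 2.06 CPM, a log2 fold change of 1.76 (SE 0.323, adjusted p = 0.000746). No protein description was given for these 3 units.

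The largest fitted decreases after that of Novel01217 were in Novel00331, Novel01079, Novel00063 and Novel01125. Novel00331 had 7.68 and 8.15 CPM with vehicle and 1.81 and 2.02 CPM after LIF in BAE cells, a log2 fold change of -2.003 (SE 0.171, adjusted p = 2.09e-07), and had 1 count in each of 2 BCE libraries and none in the other 2. Novel01125 had 60 and 49 counts with vehicle and 14 and 19 after LIF, a log2 fold change of -1.44 (SE 0.317, adjusted p = 0.00343). Novel00063 had 42 and 26 counts with vehicle and 4 and 13 after LIF, and Novel01079 had 25 and 19 against 7 and 3, with log2 fold changes of -1.69 and -1.82. Neither of these passed with DESeq2 (adjusted p = 0.0544 and 0.125).

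The largest fitted decrease rested on a single library. Novel01217 had 1222 counts in the first vehicle-treated BAE library and 28 in the second, and 16 and 18 after LIF. In the BCE libraries it had 5, 38, 24 and 20 counts. Its log2 fold change after LIF was -4.69 (SE 0.974, adjusted p = 0.00213), and -0.78 (adjusted p = 0.373) without that first library, and it did not pass with DESeq2 (adjusted p = 0.0544).

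The responses of the 2 cell types were then set side by side, in comparisons that share no library. Of 906 units tested in both, 7 passed in BCE and 108 in BAE cells, and 6 passed in both, which is 85.7% of the BCE units and 5.56% of the BAE units. These 6 had the same direction in both cell types. They are Novel00015, Novel00122, Novel00440, Novel00979, Novel01026 and Novel01130. Over the 906 units, Pearson's r of the log2 fold changes was 0.233 and Spearman's rho 0.218, across units. Of the Ensembl genes, 101 of the 108 called in BCE cells were called in BAE cells (93.5%, and 3.74% of those called in BAE cells), 98 of the 101 in the same direction, with an r of 0.302. Most of these units changed little in either cell type.

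**Figure D5:**
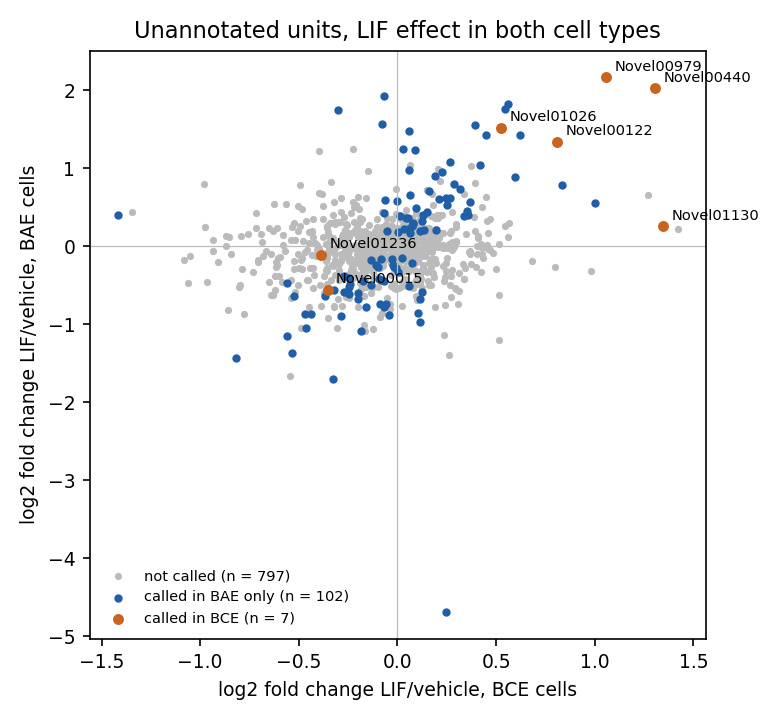
Log2 fold change of LIF over vehicle in BCE cells (x axis) and BAE cells (y axis) for 906 unannotated units tested in both. Orange points are the 7 units called in BCE cells, with their names, blue points are 102 units called in BAE cells only, and the point near -4.7 on the y axis is Novel01217, whose value rests on 1 library.

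An interaction term over all 8 libraries gave the test of whether BCE and BAE cells responded differently to LIF. Of 1145 units, 22 passed, or 1.92%, against 3.68% of all 13646 entries and 3.84% of the Ensembl genes. The effect in BCE minus that in BAE cells was higher for 7 units, with 1.16% of all entries, and lower for 15, with 2.52% of all entries. At an unadjusted p under 0.05 there were 106 units (9.26%, with 16.0% of all entries), and DESeq2 called 17 (1.48%, with 3.08% of all entries). All 15 lower units had risen in BAE cells, and 6 of the 7 higher units had fallen there, the exception being Novel01130. In 20 of the 22 the fitted effect was larger in size in BAE than in BCE cells. These directions and sizes were not counted for the other entries that passed. Over all entries tested, the median absolute log2 fold change after LIF was 0.141 in BAE and 0.0850 in BCE cells. The larger effect in BAE cells is thus not particular to the units. The count was 38 with no filter on low counts (3.02%, with 4.94% of all entries), and it depended on single libraries.

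Among the units whose response to LIF was weaker in BCE cells, Novel00510 had the largest difference, -1.97 on the log2 scale (SE 0.329, adjusted p = 0.00219). Novel00689 had 3.81 and 3.25 CPM with vehicle and 10.2 and 10.4 CPM after LIF in BAE cells, and 16.4 and 26.5 CPM with vehicle and 21.2 and 19.1 CPM after LIF in BCE cells, where the groups overlapped. Its difference was -1.61 (SE 0.262, adjusted p = 0.0018). Novel00017 had 41.4 and 40.7 CPM with vehicle and 101 and 90.04 CPM after LIF in BAE cells and 29.2 to 35.8 CPM in the 4 BCE libraries, a difference of -1.19 (SE 0.122, adjusted p = 2.49e-05). Novel01026 and Novel00979 rose in both cell types and by more in BAE cells, with differences of -0.96 (SE 0.0799, adjusted p = 2.37e-06) and -1.07 (SE 0.169, adjusted p = 0.00137). The difference for Novel00440 was -0.69 (SE 0.321) and did not pass the test (adjusted p = 0.31), nor did that for Novel00122, -0.50 (SE 0.175, adjusted p = 0.152).

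On the other side, Novel01130 had a difference of 1.12 (SE 0.154, adjusted p = 0.000407), the unit that rose more in BCE cells. Novel01147 had 12.3 and 13.7 CPM with vehicle and 5.16 and 6.72 CPM after LIF in BAE cells and 11.2 to 14.2 CPM in the BCE libraries, a difference of 0.93 (SE 0.189, adjusted p = 0.0105). Novel00782 went from 12.7 and 13.2 CPM to 7.59 and 8.19 CPM after LIF in BAE cells and stayed at 5.28 to 6.03 CPM in the BCE libraries, a difference of 0.82 (SE 0.177, adjusted p = 0.0158). With DESeq2 it did not pass (adjusted p = 0.0524).

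The number in a unit's name is the only other property the table gives. Units with consecutive numbers were weakly alike in the difference between the cell types, with Pearson's r of 0.136 over 962 pairs with vehicle and 0.160 over 868 pairs after LIF, against -0.019 and -0.037 for numbers 10 apart. Of 259 pairs of consecutive units that both passed with vehicle, 150 (57.9%) had the same direction, against 50.8% of pairs 10 apart. For the LIF effects, r of consecutive units was 0.003 in BCE and 0.062 in BAE cells. The longest runs of units called in both comparisons of the cell types were Novel00900 to Novel00904 and Novel00860 to Novel00863. The former are 5 units all higher in BAE cells, with absolute log2 fold changes from 0.23 to 9.61 with vehicle. The latter are 4 units all higher in BCE cells, from 0.97 to 2.30. Whether runs of this length would also arise by chance was not tested. What the order of the numbers stands for is not given in the sources used here.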

How the data were processed

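Per the authors' methods and processing notes, paired-end reads of 8 libraries were aligned to bovine genome UMD 3.1 with TopHat2 (version 2.0.12, with Bowtie2 version 2.2.3) and counted with HTSeq (version 0.6.1). The authors deposited raw counts per gene or unit, without normalization. The treatment of multimapping reads was not stated. Their table of genes called with DESeq (version 1.18.0) was read for its protein descriptions, its list of unannotated units and the gene names used in the check of the labels. It also holds fold changes and p-values, which were not used. The table named for BAE cells is identical to the one for BCE cells and was not used.

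Here edgeR (version 4.0.16, in R version 4.3.3) was run on the counts, with filterByExpr (minimum count 10, total 15), TMM scaling and the quasi-likelihood test. Benjamini-Hochberg adjustment covered all entries tested. Each comparison used its own 4 libraries and the interaction all 8. DESeq2 (version 1.42.0) was run without independent filtering. Standard errors were derived from the fold change and the F statistic. Of the 1273 units, 1149 were tested in at least 1 comparison and 898 in all 5, 108 had counts but passed no filter, and 16 had none. Counting intervals are exact binomial (95%), and they and the floor of 3 counts cover counting error only. The units named are, per comparison, the 5 largest increases and decreases that passed with groups that did not overlap (without that condition for the interaction), the 10 with most counts, those of the authors' table and the 5 restricted units with the highest counts per cell type. The unit lists and rules were chosen with earlier results of these data known.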

Additional observations from a re-analysis of the deposited data

Results flagged for a closer look

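Among the shares of counts held by the unannotated units, the second vehicle-treated BCE library stood apart within the 4 BCE libraries, at 1.82% against 1.77% in each of the other 3. The gap exceeded Dixon's critical value for 4 samples, which chance exceeds in about 1 in 20 groups. Without this library, the difference between BCE and BAE libraries in that share was -0.0302 percentage points (exact permutation test, p = 0.0571, the smallest that n = 3 against n = 4 allows).

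The LIF effect differed between the cell types by the interaction test for 13 units named here. The units that rose in BAE cells had differences of BCE minus BAE, on the log2 scale, of -1.97 for Novel00510, -1.78 for Novel00090, -1.61 for Novel00689, -1.23 for Novel00376, -1.19 for Novel00017, -1.07 for Novel00979, -0.96 for Novel01026 and -0.77 for Novel00421. The differences were 0.93 for Novel01147, 0.82 for Novel00782, 0.74 for Novel00472 and 0.60 for Novel00233, which fell in BAE cells, and 1.12 for Novel01130, which rose more in BCE cells. Novel00090 had 14 and 18 counts with vehicle and 7 and 3 after LIF in BCE cells, and its difference did not pass with DESeq2 (adjusted p = 0.0808) or with the replicate number as a block (adjusted p = 0.0547). Novel00233 did not pass with DESeq2 (adjusted p = 0.0856). The calls of Novel00090, Novel00233, Novel00376, Novel00421, Novel00472, Novel00782 and Novel01147 each depended on single libraries.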

How the results depend on the processing

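The alternatives were the size factors or the test of DESeq2, scaling from the Ensembl genes only, a block for the replicate number, no filter, a minimum of 10 counts throughout, a single fit of all 8 libraries, and each library left out in turn, where the lone library of an arm was assumed to vary like the others. The number of units called moved by over 1.5 times for the LIF effect in BCE cells with no filter (23 for 7), for the LIF effect in BAE cells with DESeq2's test (69 for 118) and for the interaction with no filter (38 for 22). With 1 library left out it ranged from 4 to 71 for LIF in BCE cells, from 79 to 116 for LIF in BAE cells, from 408 to 541 and from 489 to 558 between the cell types with vehicle and after LIF, and from 10 to 41 for the interaction, where the highest value was without the first vehicle-treated BCE library and the lowest without the second LIF-treated BCE library. The difference in the share of counts ranged from -0.0302 to -0.0147 percentage points and was 0.0416 without the 10 units with most counts. The difference in detected units ranged from -11.4 to -7.41, with an exact permutation p that cannot go below 0.0571 once a library is left out, and was -0.75 for at least 10 counts. With no count allowed in the other cell type, 1 unit was restricted to BCE (0.112%, with 0.0484% of all entries) and 11 to BAE cells (1.22%, with 0.535% of all entries). With at least 30 counts, 3 were restricted to BCE cells (0.472%, with 0.0969% of all entries). The cause of these changes was not tested. Over the named units and comparisons, outside the left-out libraries, 817 values kept their direction and their side of the threshold, 10 gained and 11 lost significance, and with a library left out 513 kept both, 14 gained and 49 lost significance and 30 changed sign. None of these 30 passed the test before or after. They belong to 20 log2 fold changes, whose ranges with a library left out follow. For LIF in BCE cells they were -0.014 to 0.11 for Novel00125, -0.035 to 0.069 for Novel00251, -0.24 to 0.072 for Novel00437, -0.14 to 0.0022 for Novel01046, -0.053 to 0.025 for Novel01088, -0.0054 to 0.052 for Novel01095 and -0.047 to 0.042 for Novel01203. For LIF in BAE cells they were -0.0062 to 0.13 for Novel00069, -0.16 to 0.00084 for Novel01046, -0.081 to 0.023 for Novel01088 and -0.25 to 0.018 for Novel01236. For the interaction they were -0.0047 to 0.12 for Novel00069, -0.089 to 0.065 for Novel00125, -0.28 to 0.021 for Novel00437, -0.069 to 0.12 for Novel01046 and -0.020 to 0.095 for Novel01088. Between the cell types they were -0.095 to 0.066 with vehicle and -0.065 to 0.11 after LIF for Novel01046, and after LIF -0.12 to 0.088 for Novel00122 and -0.055 to 0.20 for Novel01236. With the replicate number as a block, the counts were 8, 120, 538, 569 and 22, in the order LIF in BCE, LIF in BAE, cell types with vehicle, cell types after LIF and interaction. The replicate numbers were taken from the sample titles, while the column names of the count table carry other numbers, which match between treatments for the second replicates and differ for the first. Whether the title numbers pair the libraries is not given in the sources used here. The deviations of same-numbered libraries correlated by 0.166 between the BCE groups and by -0.0468 between the BAE groups, over 13646 entries. With the block, 226 of all entries were called for LIF in BCE cells, against 120 without it. In BAE cells the numbers were 2887 and 2889.

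Each group had 2 libraries. Under 30 counts per library, no unit and no Ensembl gene was called for LIF in BCE cells. Lengths, positions and strand of the units were not used here.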
